A study of Mus musculus with 60 samples.

Results

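This report describes how transcript levels changed between 12 to 14 somites and 16 somites in the tailbud of mouse embryos that carry a mutation in JARID2. The comparison rests on 11 mutant libraries of a series of 60 samples, chosen by the genotype and the somite number in their titles: 5 mutants with 16 somites, called late here, against 6 mutants with 12, 13 or 14 somites pooled into 1 group, called early, with 2 embryos at each of these 3 stages. Each library holds the RNA of the tailbud of 1 embryo. The design text of the series gives the mutation as JARID2 K116R, while the sample titles say only MUT or WT. Whether the mutants carry 1 or both mutant alleles, their strain, litter and sex are not given in the sources used here. Wild-type tailbuds, 4 late and 12 early, were used to look up each change in embryos outside the comparison. The chromatin samples of the series, 33 in number, come from embryonic stem cells and were not analysed here.

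The tailbud is the growth zone at the posterior tip of the embryo. Progenitors there feed the presomitic mesoderm, which is cut into somites one pair after another, and the neural tube above it, so the somite number serves as a clock of embryonic age. JARID2 associates with PRC2, Polycomb repressive complex 2, the enzyme that methylates histone H3 on lysine 27 and keeps developmental genes silent. Methylated JARID2 is known to stimulate the complex allosterically. Vertebrate Hox genes, classic targets of PRC2, switch on in sequence while the axis extends.

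The deposited tables list transcripts by versioned Ensembl transcript identifiers, and the gene tables at hand list none of these, so no transcript could be given a gene name. The results are therefore given per transcript, with 4 identifiers printed and other transcripts described by their length in bases. For the same reason the markers of the tailbud and of other cell types could not be looked up, the level of Jarid2 could not be checked against the genotype labels, and no sequence is shown. In whole tailbuds, fewer cells of a type and less RNA per cell cannot be told apart.

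Sequencing depth was not balanced between the groups. The total estimated count was 20908470 to 24338885 in the late mutants and 24556167 to 27090684 in the early ones, so every late library was shallower than every early one. In wild type the totals overlapped, at 22629915 to 24865712 late and 22897290 to 26669961 early. The late mutants had counts in 44611 to 49031 of 117135 transcripts and the early ones in 46424 to 49765. The labels also number the libraries: 5 to 9 are the late mutants, 1 to 4 the late wild types, and 10 to 27 all early embryos of both genotypes. Stage and any handling that followed this numbering cannot be told apart, in either genotype. Thinning every mutant library to the smallest total left the same 2 transcripts called as without thinning.

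Late and early mutants were not set apart by their overall profiles. CPM here are counts scaled to the size of each library. Pearson r between log2 CPM of 2 embryos, taken over the tested transcripts, had a median of 0.887 for the 15 pairs of early mutants, 0.878 for the 10 pairs of late mutants and 0.881 for the 30 pairs of 1 early and 1 late mutant. Mutant embryo 1 at 16 somites stood apart, with a mean r of 0.813 to the other late mutants against 0.863 to 0.868 for the others. Without it the median among late mutants was 0.882.

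Of 31104 transcripts tested in the 11 mutants, 2 changed between early and late at a Benjamini-Hochberg adjusted p under 0.05 in edgeR's quasi-likelihood test, which is 0.00643% of those tested. One rose and the other fell, 0.00322% of those tested in either direction, and both were transcripts with 0 counts in all embryos of one group. An unadjusted p under 0.05 was reached by 2449 transcripts, 7.87% of those tested, against 1555 that would reach it if none differed. Of these, 1287 were higher and 1162 lower at 16 somites.

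**Figure D1:**
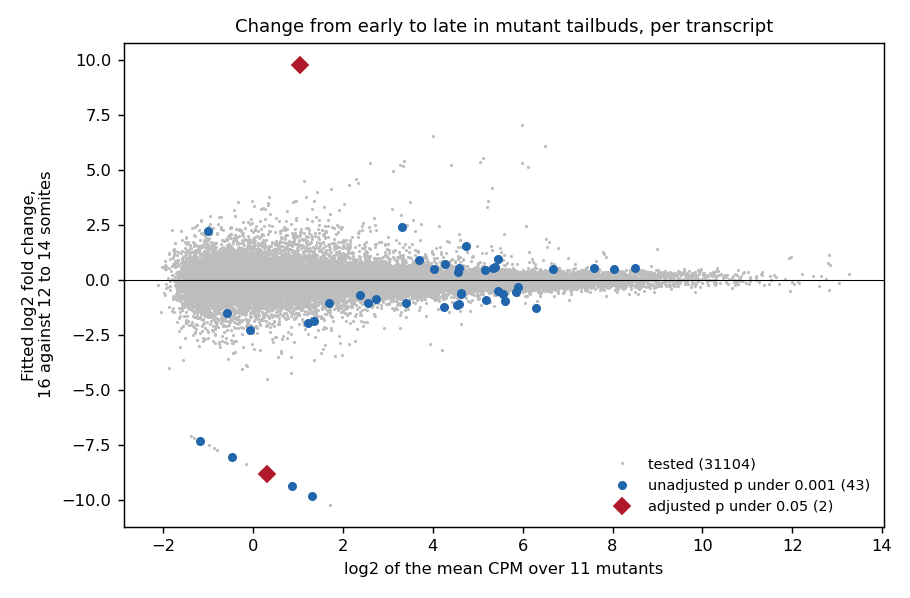
Each point is 1 of the 31104 transcripts tested in the 11 mutants, with the log2 of its mean CPM on the horizontal axis and the fitted log2 fold change of 16 against 12 to 14 somites on the vertical axis. The 2 called transcripts (diamonds) and the strip of points at the bottom left have 0 counts in a whole group or nearly so, where the fitted value depends on the prior count, while most of the 43 transcripts with an unadjusted p under 0.001 lie closer to 0.

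The called transcript that rose, ENSMUST00000154876.7, is 2842 bases long. It had 0 counts in each of the 6 early mutants. At 16 somites it stood at 7.09 CPM in embryo 1, 2.81 in embryo 2, 3.52 in embryo 3, 5.12 in embryo 4 and 4.21 in embryo 5. All late mutants thus lay above all early ones, with 66 to 139 counts against none. The late mean was 4.55 ± 1.66 CPM (SD, n = 5). Against a floor of 3 counts per early library, which covers counting error only, the transcript was at least 34.3-fold higher in late mutants, with an edgeR adjusted p of 0.0224. On the TPM scale of the authors, which divides by length, its late level was 1.35 ± 0.417 (SD, n = 5).

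In wild type ENSMUST00000154876.7 was on or off at both ages. It was at 0 in 9 of the 12 early embryos, the highest of the other early ones reaching 4.91 CPM, and at 0 in 2 of the 4 late embryos, whose highest value was 4.58 CPM. The ranges of early and late wild types overlapped, and edgeR gave an adjusted p of 0.999 for their difference. The test of whether the change differed between genotypes had an unadjusted p of 0.0153 and an adjusted p of 1 in edgeR.

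The called transcript that fell, ENSMUST00000037644.7, is 4901 bases long and showed the opposite pattern. The early mutants had 2.74 and 1.15 CPM at 12 somites, 2.72 and 2.08 at 13 somites, and 3.08 and 1.76 at 14 somites. All 5 late mutants had 0 counts, where the early ones had 26 to 90. The early mean of 2.26 ± 0.726 CPM (SD, n = 6) was at least 14.7-fold above the floor of 3 counts per late library, with an edgeR adjusted p of 0.0224. Within the early group the stage means were 1.95, 2.40 and 2.42 CPM at 12, 13 and 14 somites.

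In wild type ENSMUST00000037644.7 was at 0 in 3 of 12 early and 1 of 4 late embryos. Early values reached 7.69 CPM with a median of 1.70, and late values reached 1.53 CPM with a median of 1.17. The groups overlapped, and the edgeR adjusted p for stage in wild type was 0.999. The difference between genotypes had an unadjusted p of 0.00205 and an adjusted p of 1 in edgeR.

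Zeros in single embryos were common for transcripts of this kind. Of the 31104 tested, 6946 (22.3%) had 0 counts in at least 1 of the 11 mutants. The pattern of 0 in one whole group and counts in every embryo of the other was found for 4 transcripts, 1 on only in late and 3 on only in early mutants. Their lengths ran from 2343 to 4901 bases and the mean of the group with counts from 0.805 to 4.55 CPM. Each of the 4 was at 0 in some of the 16 wild-type embryos, in 4 to 11 of them. None of the 36763 transcripts tested in wild type separated early from late in this way. There the pattern had to hold in 12 early and 4 late embryos, more than in mutants, so the counts of the genotypes cannot be compared directly. Programs that estimate transcript counts divide reads among transcripts of shared sequence, and how far such division set these zeros was not tested.

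Both calls were lost in most fits that left out 1 embryo. The fitted log2 changes stayed at 9.61 to 9.94 for the riser and -8.94 to -8.65 for the faller. Each such fit also had fewer samples, and the effect of this was not separated from that of the embryo left out. Of the 11 fits that each left out a mutant, 3 kept each call in edgeR, with adjusted p from 0.0323 to 0.124 for the riser and from 0.0301 to 0.139 for the faller. No transcript was called without embryo 1 at 12 somites, embryo 2 at 13 somites, either embryo at 14 somites, or embryo 1, 3 or 5 at 16 somites. Leaving out embryo 2 at 16 somites gave 4 calls and embryo 4 gave 3.

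**Figure D2:**
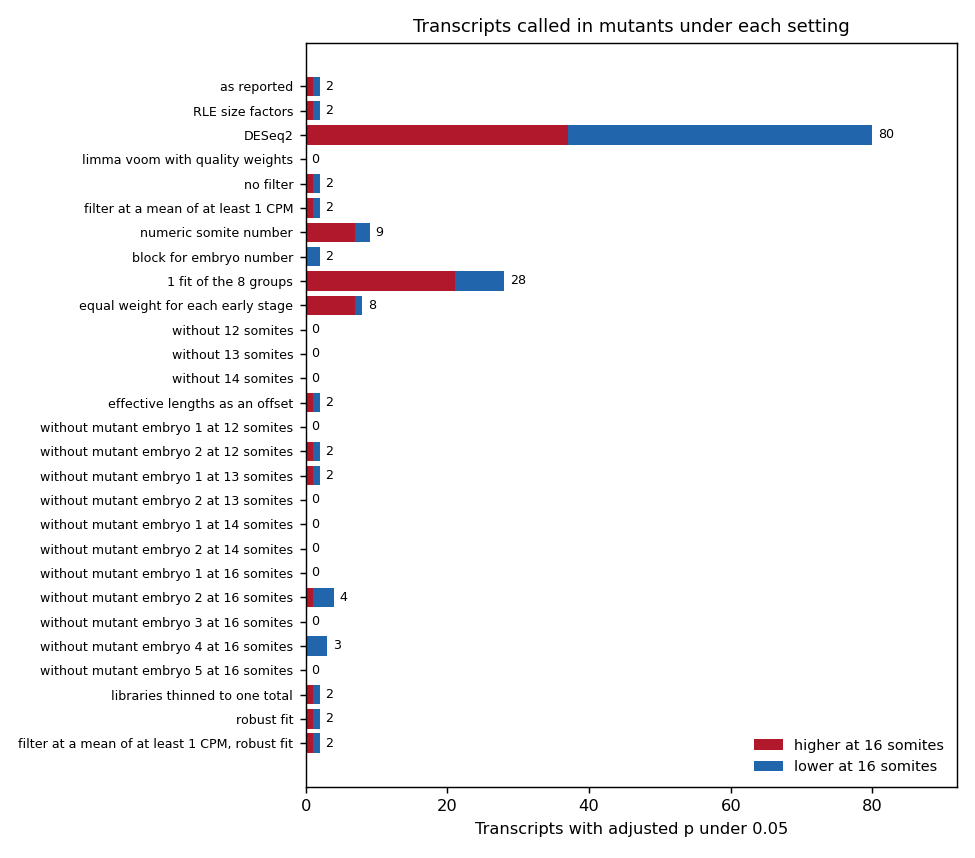
Bars count the transcripts called between early and late mutants (adjusted p under 0.05, horizontal axis) under each setting, with those higher at 16 somites in red and those lower in blue. The count is 2 as reported, 80 with DESeq2, 28 in the fit of the 8 groups, and 0 in 7 of the 11 fits that each leave out an embryo.

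Among the transcripts that had counts in every mutant, the smallest p in each direction belonged to ENSMUST00000020024.11, which is 804 bases long and higher late, and to ENSMUST00000025521.8, which is 1750 bases long and lower late. Neither passed the adjusted threshold in the 11 mutants, and both were chosen after their values were seen.

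ENSMUST00000020024.11 had 1.61 and 1.20 CPM in the mutants of 12 somites, 3.60 and 2.43 at 13 somites and 6.61 and 4.40 at 14 somites. At 16 somites the 5 mutants had 20.7, 13.6, 14.6, 16.2 and 24.5 CPM. Each stage lay wholly above the one before it, and the lowest late embryo was above the highest early one. Early mutants averaged 3.31 ± 2.02 CPM (SD, n = 6) and late mutants 17.9 ± 4.59 CPM (SD, n = 5), while on the TPM scale the means were 5.46 and 24.6. The difference of late against early was 2.43 ± 0.40 (SE) on the log2 scale, with an unadjusted p of 6.4e-05 and an adjusted p of 0.301 in edgeR. The gradient within the early stages adds to the spread of the early group. With each early stage given a mean of its own the adjusted p was 0.0094, and with the somite number as a numeric covariate it was 0.000861. These were among 16 alternative fits, of which 4 called the transcript. The adjusted p was 0.107 with limma voom and reached 0.671 in edgeR without the embryos of 13 somites. Of the 11 edgeR fits that each left out a mutant, 0 called it, with adjusted p from 0.0639 to 0.617.

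Wild-type embryos held the same order of stage means for ENSMUST00000020024.11, at 2.67, 6.52, 7.00 and 22.8 CPM from 12 to 16 somites (n = 4 each). Unlike in mutants, the early stages overlapped. Wild types ran from 1.85 to 4.09 CPM at 12 somites, 4.99 to 8.21 at 13 and 1.21 to 11.3 at 14. Late wild types ranged from 13.0 to 29.7 CPM and early ones from 1.21 to 11.3, without overlap. On the log2 scale the wild-type change was 2.08 ± 0.42 (SE). The change in mutants was larger by 0.34 ± 0.64 (SE, edgeR, unadjusted p of 0.606), so a difference between genotypes was not resolved.

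ENSMUST00000025521.8 had 55.0 and 41.8 CPM in the mutants of 12 somites, 47.4 and 44.0 at 13 somites and 45.5 and 41.3 at 14 somites. The 5 late mutants had 18.3, 24.2, 24.0, 26.2 and 30.5 CPM. All late embryos lay below all early ones, while the early stages overlapped each other. Early mutants averaged 45.8 ± 5.03 CPM (SD, n = 6) and late mutants 24.6 ± 4.41 CPM (SD, n = 5). The difference on the log2 scale was -0.90 ± 0.13 (SE), with an unadjusted p of 1.67e-05 and an adjusted p of 0.155 in edgeR. Of 16 alternative fits 2 called it, DESeq2 (adjusted p of 1.65e-07) and an edgeR fit of all 8 groups (0.017). The adjusted p reached 0.49 in edgeR without the embryos of 13 somites. Of the 11 edgeR fits that each left out a mutant, 0 called it, with adjusted p from 0.0662 to 0.432. In wild type the early embryos ran from 29.9 to 54.4 CPM and the late ones from 23.4 to 28.7, again without overlap, and the log2 difference was -0.56 ± 0.15 (SE). The test of the difference between genotypes gave an unadjusted p of 0.101 in edgeR.

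**Figure D3:**
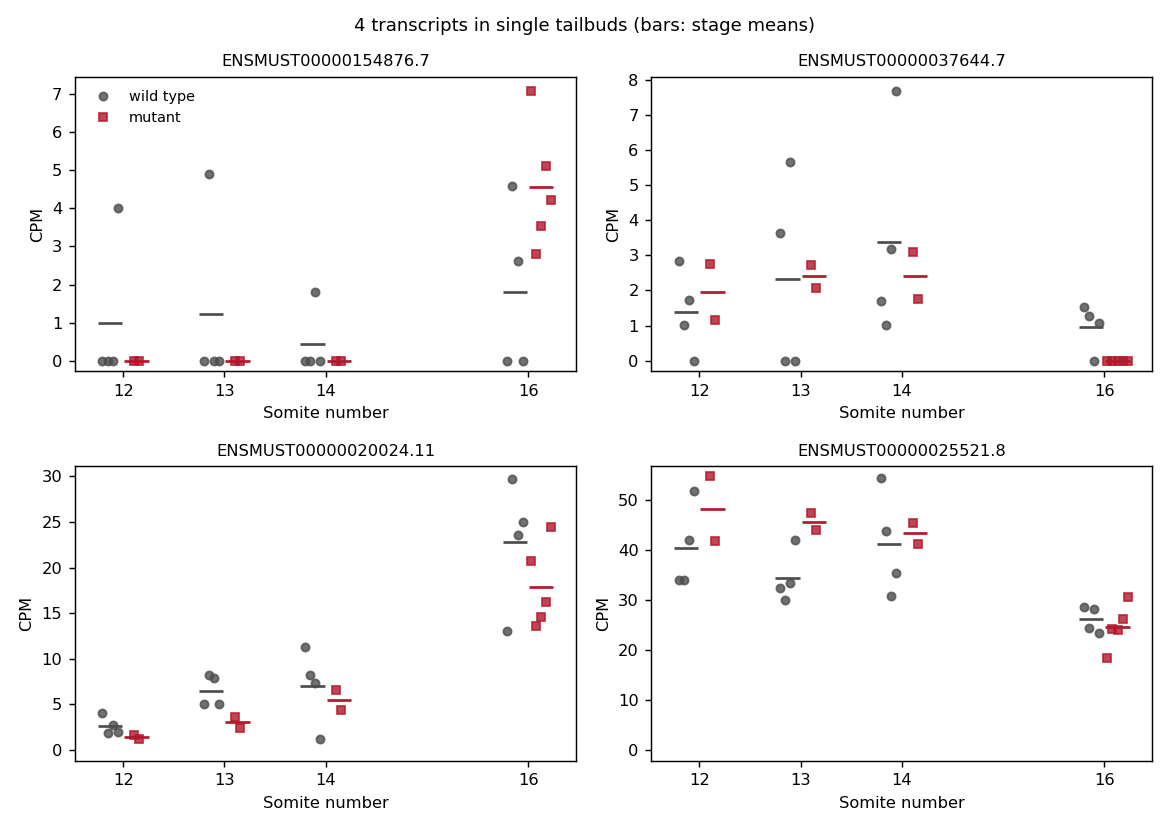
Each panel shows 1 transcript in CPM against the somite number, with 1 point per embryo (squares for the 11 mutants, circles for the 16 wild types) and a bar at each stage mean. The upper panels hold the 2 called transcripts, at 0 in all early or all late mutants but mixed in wild type, and the lower panels the 2 that had counts in every embryo and moved the same way in both genotypes.

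The spread between 2 embryos of a stage is poorly known, so the same contrast was also fitted with the spread estimated from all 8 groups of genotype and stage, with each early stage weighted equally. This edgeR fit called 28 transcripts, 0.09% of the 31104, and DESeq2 on the mutants alone called 80, 0.501% of the 15961 it gave an adjusted p. Of the 28, 21 were higher and 7 lower at 16 somites. Neither of the 2 transcripts with a whole group at 0 was among them. Of the 28, 6 had 0 counts in some mutants, and in the fit of mutants alone these had unadjusted p from 0.221 to 0.833. All 6 were among the higher ones, and each had an early stage with a mean of 0 CPM. At equal weight on the log2 scale, such an empty stage raises the fitted change. The smallest adjusted p of this edgeR fit, 1.59e-06, belonged to a transcript of 8943 bases among them. Its fitted log2 change was 3.865, while its mean went from 2.22 CPM early to 5.41 CPM late. The other 22 had counts in every mutant, and their unadjusted p in the mutants alone ran from 1.67e-05 to 0.0282. Of these 22, 15 were higher and 7 lower late, with log2 fold changes from -1.24 to 2.66.

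Many of these 22 transcripts shifted in steps through the stages. In 17 of them the stage means moved one way from 12 to 13, 14 and 16 somites, 12 upward and 5 downward. Over all tested transcripts this order was met, in the direction of the late change and on the log2 scale, by 7.65%. The fit chose the 22 partly on their stage means, and in 15 of them late and early mutants did not overlap. The step to 16 somites was thus largely fixed by the choice. The count of 17 therefore cannot be set against the share over all tested transcripts and is a description. A transcript of 3367 bases climbed from 6.81 to 14.0, 21.6 and 42.2 CPM over the 4 stages. One of 1909 bases, the most abundant riser of the set, went from 78.8 to 170, 220 and 322 CPM. Among those that fell, one of 2415 bases went from 123 to 107, 91.1 and 44.6 CPM, and one of 1868 bases from 84.4 to 56.6, 44.3 and 32.3 CPM.

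The same transcripts were then looked up in the wild-type embryos. Their stage difference had no part in the choice, but the shared spread was estimated partly from them. The choice thus favours transcripts of small spread in wild type, so the wild-type p are not independent of it. Of the 22, 21 had the same sign in wild type. An unadjusted p under 0.05 was reached by 20 of them in the wild-type fit, and by 5.61% of all transcripts. The transcript of 3367 bases changed by 0.93 ± 0.19 (SE) log2 units in wild type and by 1.58 ± 0.33 in the fit of mutants alone. That of 2415 bases changed by -1.25 ± 0.19 (SE) in wild type and by -1.26 ± 0.20 in mutants. The exception in sign was a transcript of 352 bases, which went from 0.751 to 1.76 CPM in mutants and changed by -0.39 ± 0.23 (SE) log2 units in wild type. Its unadjusted p for the difference between genotypes was 7.45e-05, which did not pass adjustment.

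A wider set, fixed by the mutants alone, was formed by the 43 transcripts (0.138%) with an unadjusted p under 0.001, 17 higher and 26 lower at 16 somites. The higher ones had a median log2 fold change of 0.57 and a median length of 917 bases, and the lower ones -1.05 and 2246.5 bases, where the median length over all tested transcripts was 2167 bases. Their median mean level was 23.2 CPM against 3.53 CPM over all. Among the 43, 6 had 0 counts in some mutant. The unadjusted p was chosen as a limit for description, and no statement on a single transcript is drawn from it.

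In wild type 40 of the 43 had the same sign, or 93%, against 63.6% of the 30822 transcripts tested in both genotypes. An unadjusted p under 0.05 with the same sign was reached in wild type by 20 of them (46.5%), against 4.45% of all. At a mean of at least 1 CPM these shares over all transcripts were 66.3% and 5.31%. The 43 were more abundant than most, and no share was taken at their own level. All 17 of the higher and 23 of the 26 lower transcripts kept their sign. The change was smaller in wild type for 42 of the 43, but the set was chosen for its change in mutants, so this difference in size is no test of genotype. Transcripts of one gene are not independent, and these shares carry no p.

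**Figure D4:**
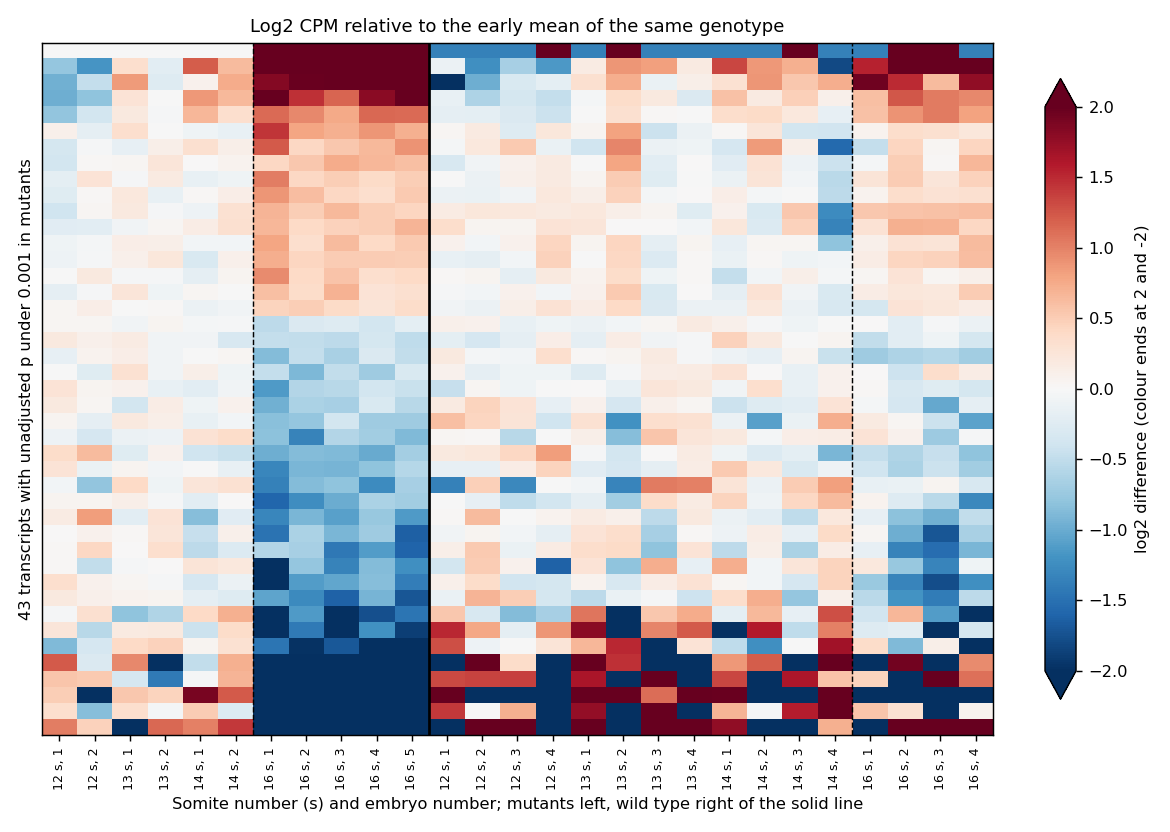
Rows are the 43 transcripts with an unadjusted p under 0.001 in mutants, and columns are the 11 mutants and then the 16 wild types, ordered by somite number within a genotype. Colour gives log2 CPM relative to the early mean of the same genotype and ends at 2 and -2, and the 17 higher and 26 lower transcripts show weaker shifts of mostly the same sign in late wild types, while the rows at the bottom and the top row switch between 0 and counts in single wild-type embryos.

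**Figure D5:**
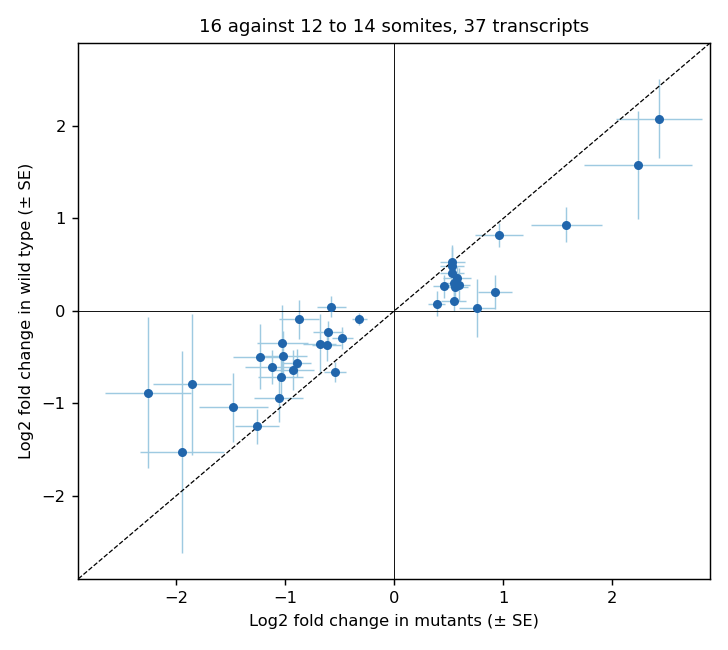
Log2 fold changes of 16 against 12 to 14 somites in mutants (horizontal) and wild type (vertical), with standard errors, are shown for the 37 of the 43 transcripts that had counts in every mutant. Of these 37, 36 have the same sign in both genotypes, and 36 lie nearer to 0 in wild type than in mutants, as the choice of transcripts by their change in mutants favours; the dashed line marks equal change.

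Likeness between the genotypes grew with the level of the transcripts. Across the 30822 transcripts tested in both, the changes of mutants and wild types were related with r = 0.136 (Pearson) and rho = 0.286 (Spearman). Above a mean of 1 CPM, for 23858 transcripts, r was 0.186 and rho 0.368, and above 10 CPM, for 9755, they were 0.355 and 0.604. Mutants and wild types are different embryos, but whether they shared litters is not given, and the late libraries of both genotypes share the low library numbers. Within mutants the change had a Spearman rho of -0.0483 with transcript length over all and -0.144 above 10 CPM.

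Whether the change from early to late differed between mutants and wild types was tested with the interaction term in all 27 embryos. Of 40045 transcripts edgeR called 0 (0%), and 1618 (4.04%) reached an unadjusted p under 0.05, against 2002 that would if none differed. limma voom with quality weights also called 0, and DESeq2 called 123. In wild type alone edgeR called 1 of 36763 transcripts between early and late, 0.00272%. That transcript, 4115 bases long, rose by 0.85 ± 0.11 (SE) log2 units in wild type. In mutants it changed by 0.58 ± 0.14 (SE), with an unadjusted p of 0.00112 and an adjusted p of 0.624 in edgeR.

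Early and late mutants did not overlap for 387 of the tested transcripts. In 155 of them (0.498%) all 5 late embryos lay above all 6 early ones, with a median log2 fold change of 0.60, and in 232 (0.746%) all late embryos lay below, with a median of -0.49. A change of at least 1 log2 unit was fitted for 42 of the 155 and 57 of the 232. Stage means moved one way from 12 to 16 somites in 29 of the 155 (18.7%) and 34 of the 232 (14.7%). The choice of these sets fixed the step to 16 somites, so only the order of the early stage means was free. These shares therefore cannot be set against the share over all tested transcripts. Whether they exceed a chance order of the early stages was not tested. In wild type 124 of the 155 (80%) and 203 of the 232 (87.5%) had the same sign, against 63.6% of all transcripts tested in both genotypes. That share was not matched to the levels of these sets.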

How the data were processed

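Single tailbuds were measured by RNA sequencing, and groups were taken from the sample titles. Per the file headers, the authors deposited for each library the length, effective length, TPM and estimated count of reads of 117135 transcripts. Salmon 1.5.2, Trim Galore 0.5.0 and DESeq2 1.46.0 are named in the submitters' processing notes. The annotation release and strandedness are not given in the sources used here. Nothing in the labels says whether embryos shared a litter.

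The deposited estimated counts were rounded and tested in R 4.3.3 with edgeR 4.0.16 (filterByExpr on early and late, TMM scaling, glmQLFit, glmQLFTest), with Benjamini-Hochberg adjustment over all tested transcripts. The filter left 31104 of 78912 transcripts with a count in a mutant. Standard errors are the size of the log2 change over the square root of F. Interaction and wild-type fits had filters of their own. Correlations used a prior count of 2. CPM of mutants and of wild types were scaled within each genotype. Planned sums per gene and gene lists could not be run, since no table pairs transcripts with genes. The planned rule named up to 5 called transcripts in each direction with a mean of at least 1 CPM, which gave 2; ENSMUST00000020024.11, ENSMUST00000025521.8 and the transcripts described by length were chosen after their values were seen. Comparison, lists and rules were chosen with earlier results of these data known. No pair of early mutants and no pair of late mutants agreed within sampling noise. Alternatives used DESeq2 1.42.0 and limma 3.58.1. Only the main edgeR fits of mutants, wild type and interaction were tried on simulated counts, and the alternatives were not. Figures were drawn with matplotlib 3.10.9.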

Additional observations from a re-analysis of the deposited data

Results flagged for a closer look

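Mutant embryo 1 at 16 somites lay far from the other late mutants in its mean r to them, 0.813 against 0.863 to 0.868. Its total of 20908470 counts was the smallest of the 11 mutants, and it had the largest share of counts outside the tested transcripts, 0.791%. Without it edgeR called 0 transcripts, with 2078 at an unadjusted p under 0.05, and both calls had an adjusted p of 0.0597. Chance sets an embryo apart in about 1 of 20 such groups, and 18 groups were looked at.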

How the results depend on the processing

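The count of 2 called transcripts in mutants, the same 2, was kept with RLE size factors, no filter, a filter at a mean of 1 CPM, effective lengths as an offset and, chosen after seeing the data, thinned libraries and robust fits. It was 80 with DESeq2 (of 15961 transcripts given an adjusted p, 0.501%; the 2 were given none and are not among the 80), 0 with limma voom with quality weights (2674 at an unadjusted p under 0.05; also 0 without mutant embryo 1 at 16 somites, an alternative chosen after seeing the data), 9 with a numeric somite number (1 of the 2 among them), 28 in the fit of the 8 groups and 8 with equal weight for each early stage (1 of the 2). It was 0 without the embryos of 12, 13 or 14 somites (fewer samples), where 1635, 2273 and 1215 had an unadjusted p under 0.05. Fits without 1 mutant each gave 0 to 4. DESeq2 shared 12 transcripts with the fit of the 8 groups, 15% of its own and 42.9% of the other's. The interaction count of 0 was 123 with DESeq2 and 0 to 1 without 1 embryo each, 1 without mutant embryo 4 or wild-type embryo 3 at 16 somites. The wild-type count of 1 was 118 with DESeq2, 12 with limma voom, 8 with a numeric somite number, 0 with the replicate block (1857 at an unadjusted p under 0.05) and 0 to 2 without 1 embryo each. Apart from the lost samples the cause was not tested. No alternative turned the sign of the 4 transcripts printed by identifier.

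The embryo number of the titles was tried as a block. The replicate block gave 2 transcripts in mutants, neither of them the 2 called without it, with 3953 at an unadjusted p under 0.05, and 0 for the interaction. The deviations of same-numbered mutants from their stage means had r from -0.165 to 0.0444 over 12 pairs. Of 8 mutants numbered 1 or 2, 2 were closest to a mutant of their own number. With 2 embryos at each early stage their deviations mirror each other, so the pairs are not independent. Whether same-numbered embryos shared a litter or handling cannot be told from this.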
